A study of Mus musculus with 4 samples.

Results

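Sox1, Sox3, Sox4, Sox11, Sox12, Sox13, Sox15 and Sox21 are 8 of the 23366 gene symbols counted by RNA-seq in mouse embryonic stem cells. They were taken by name as Sox genes linked to neural development, and were chosen by their levels and their change after knockdown of Cyrano, which were already known, so all knockdown against control values of these 8 genes are a description and carry no test. The cells were of the R1 line (129X1 x 129S1), kept on gelatin with serum, serum replacement and the self-renewal cytokine LIF. They were transfected with a short hairpin RNA against the long noncoding RNA Cyrano (2 knockdown libraries) or with a hairpin that targets no transcript (2 control libraries), in the same vector with a mCherry and a puromycin marker. Transfected cells of either kind were enriched by puromycin or by sorting, and RNA came from either of a pair of column kits; the sources used here do not say which route each library took. The series' title sets Cyrano between microRNA activity and stem cell self-renewal, and the comparison asks which transcripts differ once Cyrano is lowered.

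Sox proteins bind the minor groove of DNA through an HMG box and bend it, often beside a partner such as a POU factor. SoxB1 genes (Sox1, Sox2, Sox3) hold neural progenitors in their dividing state, and Sox21, a SoxB2 gene, opposes them. SoxC genes (Sox4, Sox11, Sox12) are known for neuronal differentiation and survival of progenitors. Sox13 is a SoxD gene whose protein dimerises through a coiled coil, and Sox15, the SoxG gene, is expressed in pluripotent cells, so that "neural" fits these last 2 less closely than the other 6.

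Several sequences frame the values. Cyrano holds a conserved site for miR-7, whose mature forms are given here from RefSeq (GRCm38.p6) with the seed, bases 2 to 8, in capitals.
mmu-miR-7a-5p: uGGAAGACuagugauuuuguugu
mmu-miR-7b-5p: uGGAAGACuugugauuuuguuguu
A match to this seed (GTCTTCC, or TCTTCCA, which pairs with bases 2 to 7 and carries an A opposite base 1, and overlaps the former in GTCTTCCA) was searched in the longest GENCODE M21 coding transcript of each gene. Of the 8 genes, 2 had a match in the 3′ UTR, against 24.1% of 18570 genes whose 3′ UTR had at least 50 bases. Sox13 held the longer match 492 bases into a 3′ UTR of 1348 bases, and Sox12 held TCTTCCA near the end of 3143 bases; capitals mark the match.
Sox13: tgctgtcttttGTCTTCCAagtccatgtgc
Sox12: tgtcaagcattTCTTCCAccagactcccct
Sox11 had no match in a 3′ UTR of 6957 bases, whereas 82.2% of the 269 genes with a 3′ UTR at least that long held 1. A match is a run of letters and not a tested site.

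Transcripts of these genes share runs of identical bases that could bear on counting. The longest run of identical bases between any pair among the 8 genes and Sox2 was 48 bases, between Sox4 and Sox11, at bases 226 to 273 of the Sox4 coding sequence (1323 bases) and 196 to 243 of that of Sox11 (1188 bases).
Sox4 and Sox11: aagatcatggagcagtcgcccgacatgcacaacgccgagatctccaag
Sox1 and Sox3 shared 45 bases, Sox2 shared 38 with Sox1 and 38 with Sox21, Sox1 and Sox21 shared 35, and Sox4 and Sox12 shared 33. The sources used here give no read length; a read inside such a run could align to both genes and be left out of both counts. The runs are short beside transcripts of 8311 bases (Sox11), 4795 (Sox4) and 4453 (Sox12).

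Promoters are shown for the SoxC genes, whose 3 members, Sox11 among them, were all higher in both knockdown libraries, as were Sox1, Sox2 and Sox3. The promoters are the 250 bases before the RefSeq start (GRCm38.p6), all on the minus strand and read 5′ to 3′ toward the start, at chr12:27342719-27342968 for Sox11, chr13:28953700-28953949 for Sox4 and chr2:152398047-152398296 for Sox12. Capitals mark matches on either strand to the CCAAT box (CCAAT), the GC box (GGGCGG) and the POU octamer (ATGCAAAT).
Sox11: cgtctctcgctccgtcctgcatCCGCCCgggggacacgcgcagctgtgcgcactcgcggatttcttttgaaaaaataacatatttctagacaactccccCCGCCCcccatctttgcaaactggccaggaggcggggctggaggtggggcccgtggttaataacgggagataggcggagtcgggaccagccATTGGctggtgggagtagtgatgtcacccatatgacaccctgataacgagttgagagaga
Sox4: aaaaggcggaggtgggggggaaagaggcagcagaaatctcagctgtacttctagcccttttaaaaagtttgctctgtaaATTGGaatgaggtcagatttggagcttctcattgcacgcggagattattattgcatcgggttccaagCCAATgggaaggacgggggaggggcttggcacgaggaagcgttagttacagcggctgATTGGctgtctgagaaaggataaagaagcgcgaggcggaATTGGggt
Sox12: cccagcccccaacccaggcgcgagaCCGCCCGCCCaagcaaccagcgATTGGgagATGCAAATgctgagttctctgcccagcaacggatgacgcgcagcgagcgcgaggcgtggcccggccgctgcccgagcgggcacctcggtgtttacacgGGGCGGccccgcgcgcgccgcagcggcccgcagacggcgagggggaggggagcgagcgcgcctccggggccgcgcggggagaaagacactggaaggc
A CCAAT box was found in all 3, with 4 in Sox4, beside 33.85% of 32851 promoters of that length. GC boxes were found in Sox11 (2) and Sox12 (3) and not in Sox4, beside 32.74%. Sox12 held the octamer 195 bases before its start, which 1.6% of promoters hold. No promoter of the 7 genes with an entry held TATAAA (12.37% of all promoters), AACAAAG (5.03%) or AACAATG (3.29%), the last 2 being Sox motifs searched on both strands. GC content was 58.0% for Sox11, 50.8% for Sox4 and 74.4% for Sox12, against a median of 52.4%. CpG counts over those expected from base content were 0.81, 0.80 and 1.01, against a median of 0.37, and Sox15 was lowest of the 7 at 0.30.

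The libraries held between 16854403 and 22321102 counts over genes. Cyrano, listed as 1700020I14Rik, was at 24.8 and 15.1 CPM (counts scaled to library size, with a correction for composition) in the controls and at 3.99 and 3.16 in the knockdown libraries, as labelled. On the log2 scale the change was -2.48 ± 0.30 (SE), at an adjusted p of 0.00702 by edgeR, with adjusted p = 0.12 without control library 1 and 0.0567 without control library 2. Over the 13199 genes tested, edgeR called 0.0833% at an adjusted p under 0.05. None of the 8 Sox genes was among them, 4 had an unadjusted p under 0.05, all higher, where 6.18% of all genes were higher and 5.43% lower at that level, and limma-voom called none. DESeq2 called Sox11 alone, beside 1.34% of the genes it adjusted. All 8 passed the filter on low counts. Both knockdown libraries lay above both controls for 5 of the 8, as for 22.3% of all tested genes, and below both for 2, as for 21.3%. The median log2 fold change was 0.46 over the 8 genes and -0.002 over all tested genes, of which 49.8% were above 0. Reads that aligned to more than 1 place made up 30.2% to 32.8% in the controls and 26.1% to 28.7% in the knockdown libraries, and the part of this in the results was not tested. In these bulk samples, more cells of a type and more RNA per cell cannot be told apart.

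**Figure D1:**
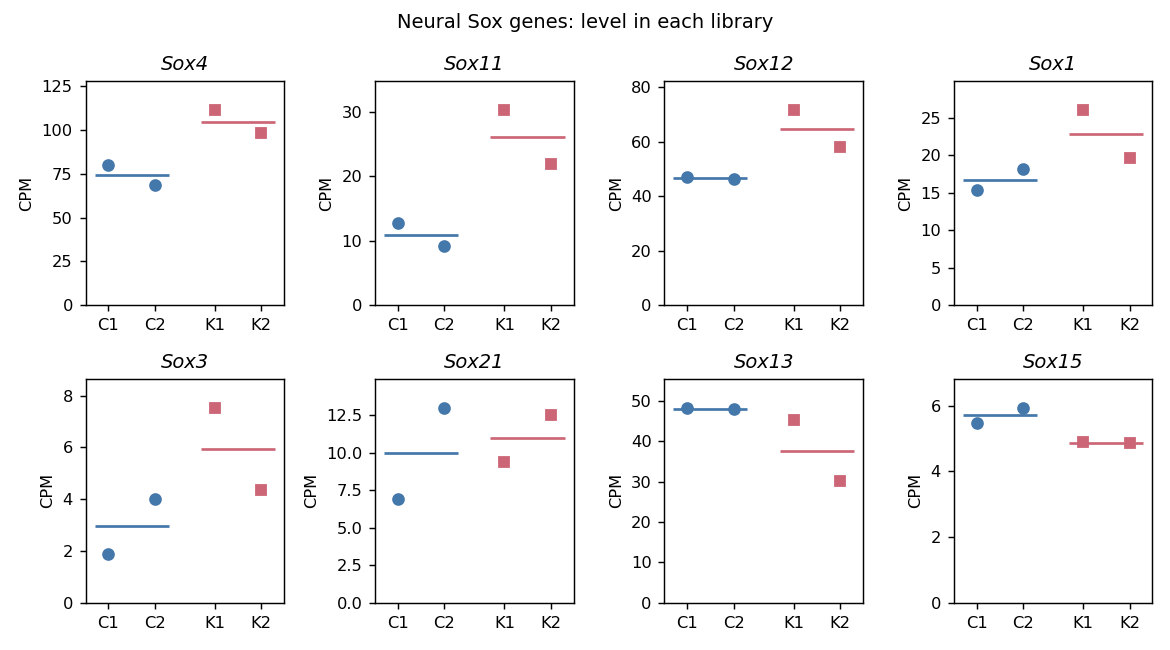
Level of each of the 8 Sox genes in CPM (vertical axes start at 0 and differ between panels) in control libraries 1 and 2 (C1, C2, circles) and knockdown libraries 1 and 2 (K1, K2, squares), with group means as lines. Sox4, Sox11, Sox12, Sox1 and Sox3 have both knockdown libraries above both controls, Sox13 and Sox15 have both below, and Sox21 overlaps.

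Per length, Sox4 was the most abundant of the 8. In CPM per kilobase of the longest transcript, averaged over the 4 libraries, the levels were 18.7 for Sox4, 12.5 for Sox12, 11.6 for Sox13, 6.15 for Sox15, 4.09 for Sox1, 2.75 for Sox21, 2.23 for Sox11 and 2.16 for Sox3. The ranges over libraries of Sox4 (14.3 to 23.2) and Sox12 (10.4 to 16.1) overlapped, although Sox4 was the higher in each library, and so did those of Sox12 and Sox13 (8.14 to 13.05). Sox15 (5.67 to 6.89) stood apart from Sox13 above and from Sox1 (3.19 to 5.38) below. Sox1, Sox21 (1.83 to 3.42), Sox11 (1.10 to 3.64) and Sox3 (0.913 to 3.64) each overlapped the next. Sox2, which with POU5F1 maintains pluripotency, stood at 211, far above the 8, and supplied 96.3% to 97.9% of the SoxB1 level per length in each library.

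Among the SoxC genes, Sox11 had the largest difference. Its transcript was counted 209 and 173 times in the controls and 675 and 471 times after knockdown, which gave 12.7 and 9.16 CPM against 30.2 and 21.9 CPM. Each knockdown library stood well above each control, and the 95% exact Poisson intervals, which cover counting error only, ended at 14.6 CPM in control 1 and began at 19.9 CPM in knockdown 2. Means were 10.94 ± 2.51 and 26.1 ± 5.91 CPM (SD, n = 2 each), a 2.39-fold difference. The log2 fold change of 1.25 ± 0.25 (SE) was above that of 99.04% of tested genes, and its adjusted p was 0.0852 by edgeR and 0.00309 by DESeq2. Sox11 has the longest transcript of the 8 and lies in the fifth of genes with the longest transcripts, whose median log2 fold change was -0.14. In a fit with offsets for length and GC content of transcripts, its log2 fold change was 1.41 ± 0.20 (edgeR adjusted p = 0.0472). Without knockdown library 1 it was 0.99 (edgeR adjusted p = 0.0961), and without control library 1 it was 1.51 (0.158).

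Sox4, which acts with Sox11 in neuronal differentiation and is also active in many progenitors outside the nervous system, had 1319 and 1292 counts in the controls and 2482 and 2116 after knockdown. These were 80.2 and 68.4 CPM against 111 and 98.3 CPM, so that the groups did not overlap. The log2 fold change was 0.50 ± 0.15, a 1.41-fold difference (edgeR adjusted p = 0.236). An antisense gene, Gm26735, overlaps Sox4 in GENCODE M21, and since the sources used here do not say whether strand entered the counting, its reads cannot be set apart. Sox12, the remaining SoxC gene, was at 46.96 and 46.2 CPM in the controls and at 71.5 and 57.98 CPM after knockdown. The controls nearly coincided while the knockdown libraries were spread, and its log2 fold change was 0.48 ± 0.17, a 1.39-fold difference (edgeR adjusted p = 0.293), or 0.31 on the log2 scale without knockdown library 1. The ratio of Sox4 to Sox12 per length was 1.48 ± 0.149 in the controls and 1.51 ± 0.092 after knockdown (SD, n = 2 each). The ratio of Sox4 to Sox11 per length was 10.9 and 12.9 in the controls, and 6.37 and 7.79 once Cyrano was lowered. The summed SoxC level was 139.9 and 123.8 CPM in the controls against 212.9 and 178.2 CPM after knockdown.

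Of the SoxB1 genes, Sox1, an early marker of the neural plate, was at 15.4 and 18.1 CPM in the controls and 25.98 and 19.6 CPM after knockdown. Knockdown library 2 lay just above control 2, and the log2 fold change was 0.44 ± 0.22 (edgeR adjusted p = 0.469), or 0.22 without knockdown library 1. Sox3, an X-linked gene of neural progenitors, had only 31 and 76 counts in the controls and 168 and 94 after knockdown. At 1.89 and 4.02 CPM against 7.53 and 4.37 CPM, the counting intervals of control 2 (3.17 to 5.04 CPM) and knockdown 2 (3.53 to 5.34 CPM) overlapped. Its log2 fold change of 1.00 ± 0.43 (edgeR adjusted p = 0.385; not adjusted by DESeq2 owing to its low count) was 1.65 without control library 2, 0.56 without control library 1 and 0.55 without knockdown library 1. The abundant relative Sox2 was at 402 and 413 CPM in the controls and 487 and 436 CPM after knockdown, and its log2 fold change of 0.18 ± 0.14 did not pass (edgeR adjusted p = 0.658) and was 0.09 without knockdown library 1. Sox21 was at 6.94 and 12.98 CPM in the controls and 9.41 and 12.5 CPM after knockdown, so that the groups overlapped (0.13 ± 0.31 on the log2 scale, edgeR adjusted p = 0.912). Gm4675 overlaps Sox21 on the opposite strand, and Gm25239 overlaps Sox1 on the same strand.

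Sox13 and Sox15 lay on the other side of the controls. Sox13 was at 48.2 and 47.9 CPM in the controls and 45.1 and 30.1 CPM after knockdown; the lower mean comes largely from knockdown library 2, without which the log2 fold change was -0.09 in place of -0.35 ± 0.20 (edgeR adjusted p = 0.522). Sox15 was at 5.48 and 5.93 CPM against 4.88 in each knockdown library, a difference of -0.23 ± 0.31 on the log2 scale (edgeR adjusted p = 0.826). Its counts were 90 and 112 against 109 and 105. The Sox15 counting intervals of the controls (4.40 to 6.73 and 4.88 to 7.14 CPM) overlapped those after knockdown (4.01 to 5.89 and 3.99 to 5.905 CPM). For Sox13, the interval of knockdown 1 (42.4 to 47.98 CPM) overlapped those of both controls (44.9 to 51.7 and 44.8 to 51.1 CPM). Sox15 overlaps Mpdu1 on the opposite strand, the only one of these overlapping genes among the counted symbols. Whether Sox15 reads were left out as ambiguous was not tested. The Sox15 transcript, at 861 bases, is the shortest of the 8. Sox13 has 14 exons and Sox15 has 2, whereas the other 6 genes are single exons, the layout of SoxB and SoxC genes.

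**Figure D2:**
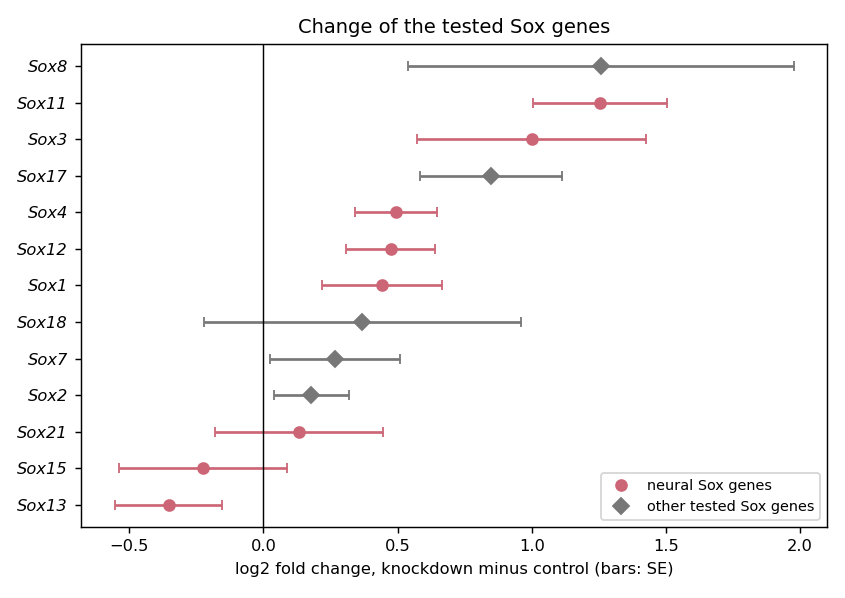
Log2 fold change, knockdown minus control, with SE bars for the 8 genes (circles) and the 5 other Sox genes that passed the filter on low counts (diamonds). Sox11 (1.25) and Sox3 (1.00) are highest among the 8 and Sox13 (-0.35) is lowest; the wide bar of Sox8 goes with a level under 1.6 CPM.

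**Figure D3:**
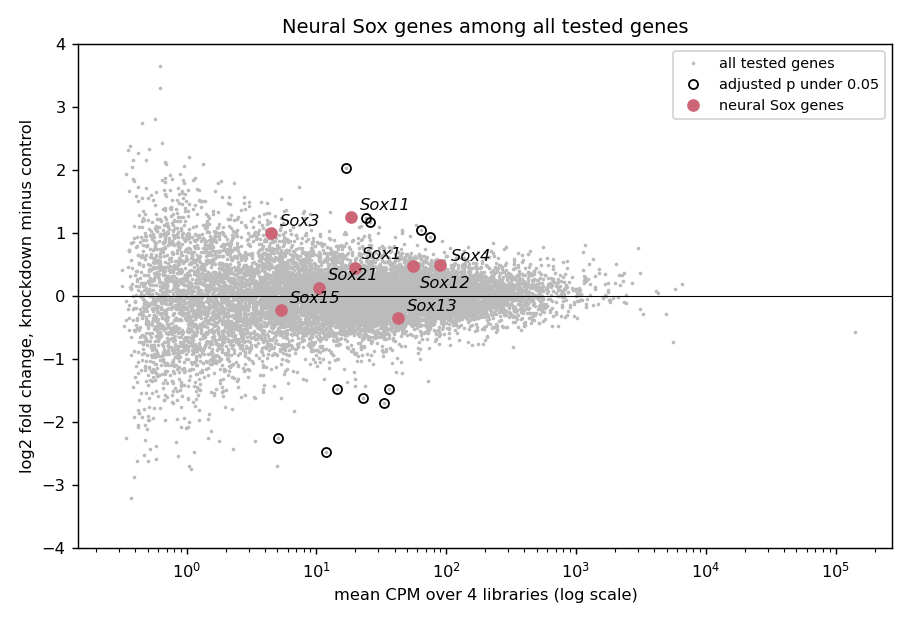
Log2 fold change, knockdown minus control, against mean CPM over the 4 libraries (log axis) for the tested genes, with the 11 genes at an adjusted p under 0.05 ringed and the 8 Sox genes filled; 4 genes beyond a log2 fold change of 4 in size are not drawn. Sox11 lies at the upper edge of genes of its level and the other 7 lie within the cloud.

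The plot of all fits shows how Sox11, Sox4, Sox12 and Sox3 depended on the choices made. These 4 are the members with an unadjusted p under 0.05 by edgeR. All 4 stayed above 0 in each of the 16 alternatives, which refit the same libraries. Both knockdown libraries lay above both controls for each of them, so leaving out 1 library could hardly change the sign. Sox11 ranged from 0.99 to 1.51, Sox4 from 0.38 to 0.61, Sox12 from 0.31 to 0.62 and Sox3 from 0.55 to 1.65 on the log2 scale. Each lowest and highest value came from a fit without 1 library.

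**Figure D4:**
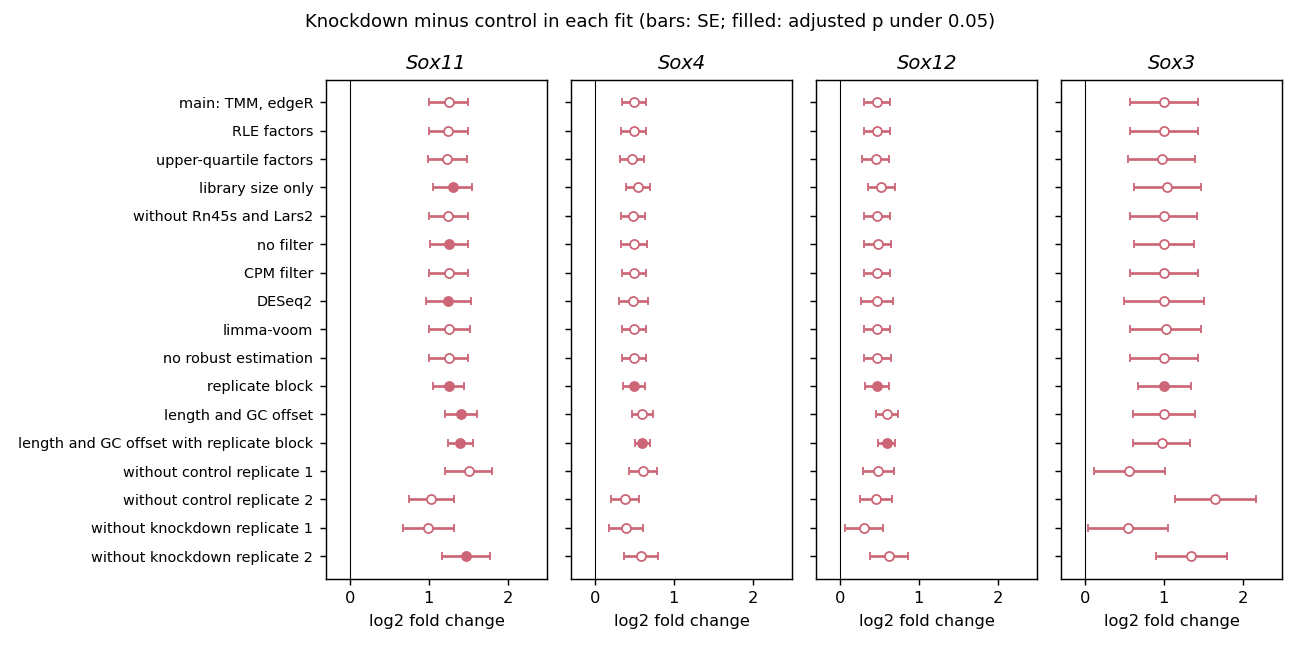
Log2 fold change, knockdown minus control, with SE bars for Sox11, Sox4, Sox12 and Sox3 in the reported fit and 16 alternatives; filled points have an adjusted p under 0.05 over all genes in that fit. Sox11 is filled in 7 alternatives, and the others only where the replicate number was a block.

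A list of 12 other Sox genes, Sox2 among them, gave a wider view of the family. Of these, 5 passed the filter, and all 5 were above 0 on the log2 scale (median 0.37), beside 49.8% of all tested genes. Neither edgeR, DESeq2 nor limma-voom called any, while Sox17 had an unadjusted p under 0.05. Sox17, an endoderm regulator, was at 5.96 and 7.31 CPM in the controls and 11.3 and 12.6 CPM after knockdown, without overlap (log2 fold change 0.85 ± 0.27, edgeR adjusted p = 0.236). Sox7, also an endoderm gene, was at 12.4 and 12.02 against 16.8 and 12.6 CPM (0.27 ± 0.24, 0.712), and Sox8, a neural crest and glial SoxE gene, stayed under 1.6 CPM in each library (1.26 ± 0.72, 0.525). The other 7 were under 1 CPM throughout, among them the glial gene Sox10 and the SoxB2 gene Sox14. Sox14 had no count in any library, which allows up to 0.183 CPM in control 1, the least deeply sequenced (3 counts).

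POU factors, the partners of Sox proteins on DNA, were split in direction. Of 15, 10 were tested, 6 of them above 0 on the log2 scale and 4 below (median 0.16); edgeR, DESeq2 and limma-voom called none, and 1 in each direction had an unadjusted p under 0.05. Pou2f3 was at 13.02 and 9.64 CPM in the controls and 19.9 and 19.7 CPM after knockdown (0.81 ± 0.23, edgeR adjusted p = 0.204). Pou2f1, the ubiquitous OCT1 gene, was at 107 and 67.3 CPM against 70.9 and 49.8 CPM (-0.53 ± 0.24, 0.424), and Pou4f2, a factor of retinal ganglion cells, had 0.58 ± 0.28 (0.452). Pou5f1, the pluripotency partner of Sox2, had -0.09 ± 0.14 (0.847). Pou3f2, a neural POU factor, was under 1 CPM throughout. Among 9 genes with known Sox2 and POU enhancers in stem cells, 4 were above 0 and 5 below on the log2 scale, with a median of -0.04. Nanog was at 216 and 228 CPM in the controls and 129 and 133 CPM after knockdown (-0.76 ± 0.14, edgeR adjusted p = 0.0696), and DESeq2 called it (0.000563). Dppa4 had 0.36 ± 0.16 (edgeR adjusted p = 0.387), Lefty1 0.41 ± 0.30 (0.627) and Utf1 0.003 ± 0.16 (0.997), the last of which changed sign with scaling. Of the 9, edgeR and limma-voom called none, and 1 in each direction had an unadjusted p under 0.05.

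Neural plate and progenitor genes were split in direction. Of 31, 21 were tested, 9 above 0 on the log2 scale and 12 below (median -0.11). By edgeR none was called, 2 were higher and 3 lower at an unadjusted p under 0.05, limma-voom called none, and DESeq2 called Ncam1 lower. Ncam1, a neural cell adhesion gene, was at 41.7 and 32.8 CPM in the controls and 20.02 and 15.3 CPM after knockdown (-1.07 ± 0.21, edgeR adjusted p = 0.0852). Otx2, a gene of the epiblast and forebrain, was at 6.02 and 3.71 CPM against 10.6 and 12.3 CPM (1.24 ± 0.31, 0.171), and Notch1, the receptor that keeps progenitors undifferentiated, at 89.97 and 80.9 against 62.6 and 53.2 CPM (-0.56 ± 0.16, 0.195). These 3 genes, named for their low p, had groups that did not overlap. Of the 21 tested, 4 genes were higher after knockdown without overlap of the groups, and 4 were lower. The shares among all tested genes were 22.3% and 21.3%. Vim, an intermediate filament gene, and Gbx2, an anterior hindbrain and stem cell factor, were the most abundant per length, at -0.12 ± 0.14 (0.778) and 0.22 ± 0.16 (0.615). The label "neural" describes where these Sox genes are known to act and not the cells. Of the 31, 12 were under 1 CPM in each library, and Fabp7, a radial glia gene, had no count. The filter on low counts passed 21 of the 31, beside 13199 of all 23366 symbols, so these low levels alone do not tell the type of the cells. The summed level of the list, to which Vim gave the most, was 1181 and 1188 CPM in the controls and 1147 and 1074 CPM after knockdown.

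Proneural and neuronal genes, which act after the progenitor stage, were not called either. Of 15 proneural bHLH factors, partners and inhibitors, 9 were tested, 6 above 0 and 3 below with a median of 0.23; edgeR, DESeq2 and limma-voom called none, and 1 was higher and 2 lower at an unadjusted p under 0.05. Neurog3, a proneural and endocrine factor, went from 0.304 and 0.424 CPM to 1.25 and 2.18 CPM (2.21 ± 0.69, edgeR adjusted p = 0.236), at very low counts. Tcf12, an E protein gene, had -0.44 ± 0.19 (0.399) and Id3, which encodes an inhibitor of E proteins, -0.47 ± 0.21 (0.428), while the abundant members Id1 and Tcf3 had -0.10 ± 0.27 (0.927) and 0.05 ± 0.16 (0.947). Of 18 genes of differentiating neurons, several of them reported SoxC targets, 15 were tested, 7 above 0 and 8 below, with a median of -0.03; edgeR, DESeq2 and limma-voom called none, and 1 in each direction had an unadjusted p under 0.05. The neurofilament gene Nefl was at 31.1 and 27.7 CPM in the controls and 42.02 and 37.4 CPM after knockdown (0.43 ± 0.18, 0.37), its partner Nefm had 0.67 ± 0.35 (0.489), and Mapt, the tau gene, was at 31.3 and 24.8 against 23.1 and 12.5 CPM (-0.66 ± 0.27, 0.382). Leaving out 1 library at a time gave -1.17 to -0.28 for Mapt and 0.11 to 1.12 for Nefm. The tubulin regulators Stmn1 and Stmn2, most abundant per length, had 0.03 ± 0.14 (0.967) and 0.25 ± 0.17 (0.596). Dcx, a marker of migrating young neurons, had no count in any library. Tubb3, a neuronal tubulin gene reported to be driven by Sox4 and Sox11, was at 122 and 162 CPM in the controls and 90.4 and 129 CPM after knockdown. Its groups overlapped (-0.37 ± 0.19, edgeR adjusted p = 0.489). In the same list, Igfbpl1 had 0.42 ± 0.35 (0.678) and Tead2 had -0.03 ± 0.14 (0.964). Tubb3, Igfbpl1 and Tead2 were named after their values were seen, and whether targets followed Sox4 or Sox11 was not tested.

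**Figure D5:**
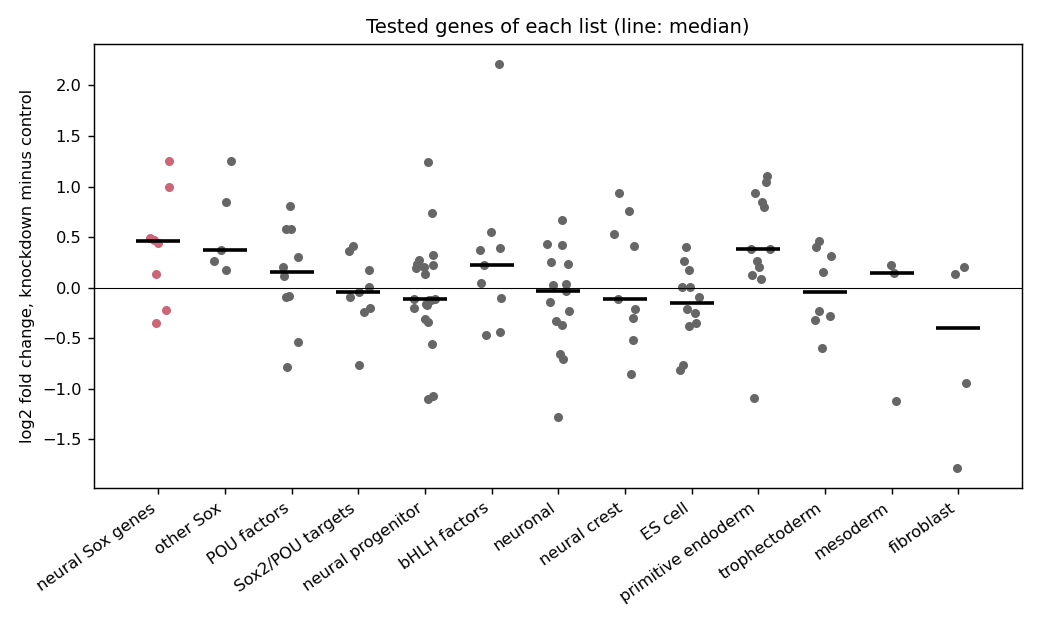
Log2 fold change, knockdown minus control, of the tested genes of each list, 1 point a gene, with the median as a line and no meaning in the sideways spread. The medians are 0.46 for the 8 neural Sox genes, 0.37 for the other Sox genes, 0.38 for primitive endoderm markers and -0.40 for the 4 tested fibroblast markers, and between -0.15 and 0.23 for the rest.

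Markers of other cell types were set beside these genes. Of 12 primitive endoderm markers, which include Sox7 and Sox17, 11 were above 0 and 1 below on the log2 scale with a median of 0.38. Of all tested genes, 49.8% were above 0. Both knockdown libraries lay above both controls for 8 of the 12, beside 22.3% of all tested genes. They lay below both for 1, beside 21.3%. The summed level was 1568 and 1326 CPM in the controls and 1969 and 1597 CPM after knockdown. Most of the sum was the matrix genes Lama1, Col4a1, Sparc and Col4a2, at 437, 430, 383 and 208 CPM in control 1. Lama1 and Sparc had groups that overlapped. By edgeR and limma-voom none was called, 6 were higher and 1 lower at an unadjusted p under 0.05, and DESeq2 called Pdgfra and Gata4. Pdgfra, a receptor gene of primitive endoderm, was at 18.2 and 20.4 CPM in the controls and 32.03 and 50.9 CPM after knockdown (1.10 ± 0.23, edgeR adjusted p = 0.093). Gata4 was at 12.8 and 21.9 against 30.3 and 36.6 CPM (0.94 ± 0.25, 0.183) and Gata6 had 0.79 ± 0.23 (0.213), whereas the abundant matrix genes Sparc and Col4a1 had 0.12 ± 0.14 (0.782) and 0.38 ± 0.18 (0.433). Hnf4a, named here as the 1 marker below 0, was at 9.49 and 5.03 CPM in the controls and 4.30 and 2.51 CPM after knockdown. Its log2 fold change was -1.09 ± 0.40 (edgeR adjusted p = 0.319), and its groups did not overlap. The part of endoderm cells in the Sox values was not tested.

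None of the 12 stem cell markers was under 1 CPM in all libraries, with sums of 5834 and 5986 CPM in the controls and 5508 and 5219 CPM after knockdown, and a median of -0.15. By edgeR and limma-voom none was called, 1 was higher and 4 lower at an unadjusted p under 0.05, and DESeq2 called Nanog and Tfcp2l1 lower. Tfcp2l1, a naive state factor, had -0.81 ± 0.20 (edgeR adjusted p = 0.171), and Dppa5a had 0.40 ± 0.16 (0.35). Of the 12 neural crest markers, 9 were tested with a median of -0.11 and summed levels of 158 and 151 CPM in the controls and 164 and 120 CPM after knockdown. Twist1, at 2.43 and 5.30 against 6.81 and 8.04 CPM (0.93 ± 0.38, 0.358), was the member with an unadjusted p under 0.05, followed by Ets1 (0.53 ± 0.36, 0.596) and Snai1 (0.41 ± 0.29, 0.607), while Foxd3 and Ngfr, most abundant per length, had -0.21 ± 0.19 (0.717) and -0.30 ± 0.22 (0.638). Sox10, which defines the crest and its glia, was at or under 0.159 CPM in each library. By edgeR, DESeq2 and limma-voom none of the 12 was called.

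Trophectoderm markers summed to 56.5 and 58.7 CPM in the controls and 56.9 and 65.8 CPM after knockdown, with a median of -0.04 over 8 tested; Tfap2c had 0.40 ± 0.24, Eomes -0.32 ± 0.30 and Krt8 -0.23 ± 0.24. Mesoderm markers summed to 27.5 and 14.4 CPM against 27.6 and 19.0 CPM, with 8 of 10 under 1 CPM throughout and a median of 0.15 over 3 tested; Mixl1 had -1.12 ± 0.89, Mesp2 0.23 ± 0.34 and Kdr 0.15 ± 0.50. Fibroblast markers summed to 1040 and 665 CPM against 1066 and 807 CPM, with a median of -0.40 over 4 tested; nearly all of the sum was Fn1 (0.14 ± 0.21), with Thy1 at 0.20 ± 0.44, Acta2 at -1.78 ± 0.86 and Col1a1 at -0.94 ± 0.55, while Col3a1, Postn, Lum and Dcn had no count. In these 3 lists edgeR, DESeq2 and limma-voom called none, and none had an unadjusted p under 0.05 by edgeR.

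The genes most like Sox11 and Sox4 over the 4 libraries were found by the root mean square difference of centred log2 CPM among 9772 other genes with a mean of at least 5 CPM. Nearest to Sox11 was Fam19a4, a gene of a secreted chemokine-like family, at a difference of 0.11, with 8.76 and 5.72 CPM in the controls and 19.6 and 16.8 CPM after knockdown. It was followed by Sap18, of a histone deacetylase complex (0.15), the carbonic anhydrase gene Car4 (0.15), the NAD synthesis gene Naprt1 (0.18) and the transcription factor gene Cebpd (0.18). Sox4 had closer neighbours, at 0.01 for the membrane transporter gene Mfsd11, 0.02 for the spermine synthase gene Sms, 0.02 for the G protein subunit gene Gng12, 0.02 for the DNA methyltransferase gene Dnmt3a and 0.02 for the scramblase gene Plscr1. With 4 libraries, such likeness is a description of the libraries and separates few patterns.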

How the data were processed

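The authors deposited 1 file per library of raw read counts per gene symbol, unnormalized, as whole numbers with unequal totals show. TopHat, HTSeq, SAMtools and bedtools with build mm9 are named per the submitters' processing notes; their versions, the annotation and any use of strand are not given in the sources at hand. The 5 tallies that name no gene were left out. As a percent of gene counts and tallies together, 6.39 to 7.61 lay outside genes, 0.46 to 0.60 were ambiguous and 26.1 to 32.8 lacked a unique alignment. The tally of reads not aligned was 0 in each library, so these percents do not cover such reads.

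The test on these counts was that of edgeR 4.0.16, run in R 4.3.3 (filterByExpr with a minimum count of 10, TMM factors, robust glmQLFit, glmQLFTest, group the only term, two-sided, Benjamini-Hochberg over all 13199 genes, threshold 0.05). A run on simulated data checked only that the size and sign of planted changes were recovered. It set no bound on the share of them called or on false calls. An SE was obtained by dividing the size of a log2 fold change by the root of its F statistic. DESeq2 1.42.0 and limma-voom 3.58.1 were alternatives. With 2 libraries against 2, an exact permutation test cannot go below 0.333. Control libraries differed by a chi-square over its degrees of freedom of 25.35 and knockdown libraries by 20.54, so none counted as a repeat. The submitters call the libraries biological replicates, but how cultures were separated is not stated, so p-values cover only variation among these libraries, which may be technical.

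The members and the 12 gene lists were chosen with earlier results of these data known. Named genes were the members, Cyrano, Sox2, and in each list genes called, the 3 with the lowest p and the 2 most abundant per length; others are marked or named for a zero or low level. Lengths come from GENCODE M21 (GRCm38) by symbol, matched for 98.5% of 23366 symbols, and promoters and microRNAs from RefSeq; Sox3 has no promoter entry. No coordinates were joined to the counts. No amino acid sequence was used here.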

Additional observations from a re-analysis of the deposited data

How the results depend on the processing

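With 16 alternatives, the 5 genes called higher and 6 lower changed in number. DESeq2 gave 71 and 62, limma-voom 1 and 2, and edgeR without robust estimation 1 and 3. Leaving the filter off gave 174 and 158, scaling by library size only 32 and 18, and upper-quartile factors 10 and 16, while RLE factors or a CPM filter each gave 2 higher; leaving out a library gave 0 to 60 higher and 0 to 131 lower, the top of both without knockdown library 1. Cyrano was not called by limma-voom (-2.42) nor in fits without a control library, with -2.79 to -2.08 over left-out libraries; the cause was not tested here or below. Sox11 was called with library size only (1.31), no filter (1.26), DESeq2 (1.25) and the length and GC offset (1.41), and ranged from 0.99 to 1.51 over left-out libraries, where it was called without knockdown library 2. Sox21 ranged from -0.25 without control library 1 to 0.66 without control library 2.

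Replicate numbers are shared only by title. Deviations of same-numbered libraries correlated at 0.2437 across genes, with 2 pairs, too few to treat the numbers as pairs. With the replicate number as a block, 504 genes were called higher and 451 lower (339 and 269 with the length and GC offset as well); Sox11 (1.25, and 1.40 with the offset), Sox4 (0.50 and 0.60), Sox12 (0.47 and 0.59) and Sox3 (1.00, block alone) were then called. In that block fit the lists had 1 other Sox gene, 2 POU factors, 1 Sox2 and POU target, 4 neural progenitor, 1 bHLH, 2 neuronal, 1 crest, 3 stem cell and 6 endoderm genes called, and with the offset 1, 1, 1, 3, 0, 1, 0, 3 and 7.

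Elsewhere a list's count differed from 0 as follows. It was 1 Sox2 and POU target with upper-quartile factors, library size only, no filter, DESeq2 and the offset; 1 neural progenitor gene with library size only and DESeq2 and 4 with no filter; 1 stem cell marker with upper-quartile factors, library size only and the offset and 2 with no filter and DESeq2; and 1 endoderm marker with library size only, 3 with no filter and 2 with DESeq2. Over left-out libraries the counts ran from 0 to 1 for POU factors, neuronal genes and stem cell markers, 0 to 2 for neural progenitor genes and 0 to 3 for endoderm markers.

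The alternatives were summarised for the 49 single genes that the naming rule gave outside the 8. Tubb3, Igfbpl1, Tead2 and Hnf4a are not among them. Of the 49, Utf1 changed sign with upper-quartile factors (-0.019), without Rn45s and Lars2 (-0.0026), by DESeq2 (-0.0005) and by limma-voom (-0.0054). It also did so with the block (-0.0052), the offset (-0.12) and both (-0.12). Stmn1 changed sign with the offset (-0.10) and both (-0.10). Genes that changed sign over left-out libraries ranged from -0.0015 to 0.82 for Lefty1, -0.19 to 0.17 for Utf1, -0.66 to 0.30 for Id1, -0.15 to 0.27 for Tcf3, -0.0518 to 0.11 for Stmn1, -0.0187 to 0.48 for Stmn2, -0.55 to 0.0725 for Foxd3, -0.56 to 0.0169 for Ngfr, -0.0281 to 0.45 for Mesp2, -0.46 to 1.18 for Kdr, -0.15 to 0.49 for Fn1 and -0.55 to 0.69 for Thy1. Of the 49, 27 others kept their sign in these fits but moved by over 1.5 times without at least 1 library, Mapt and Nefm among them, and 10 did neither. Over all alternatives Pou2f1 ranged from -0.83 to -0.16, Notch1 from -0.69 to -0.28 (lowest in size with the offset), Twist1 from 0.49 to 1.60, Tfcp2l1 from -1.07 to -0.50, Pdgfra from 0.73 to 1.39, Gata4 from 0.61 to 1.38 and Gata6 from 0.48 to 1.06. Depth limits Sox3 most, with 31 counts in control 1.
In fits with 1 library left out, the lone library of its group was assumed to vary like the other group.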
